A study of Mus musculus with 8 samples.

Results

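The kynurenine pathway breaks down tryptophan, and its enzymes were followed here in germinal centre B cells of mice with and without floxed Irf8. The set holds 10 genes, all found among the 23469 gene symbols of both deposited tables. Kmo and Kynu were chosen by their lower RPKM in the Irf8 cKO libraries of these data. The other 8 (Afmid, Haao, Ido1, Ido2, Tdo2, Qprt, Acmsd and Ahr) were added as neighbouring steps of the pathway or, for Ahr, as a receptor of its products. Values of Kmo and Kynu in this comparison are therefore a description and carry no test.

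Germinal centre B cells are antigen-activated B cells that mutate their antibody genes, and the gate was B220+ FAShigh GL7high, on day 13 after immunization with the hapten-carrier conjugate NP-KLH. Ctrl mice were Irf8+/+ and Irf8 cKO mice were Irf8flox/flox, both of strain C57BL/6. Both groups carry the same Cre allele, so that Cre itself does not differ between them. Each of 2 experiments gave 1 library per group (n = 2 per group). The labels give neither the age of the mice nor whether a library is 1 animal or a pool, so the spread between libraries may be technical. The series holds 8 samples, and the 4 of B cells cultured with lipopolysaccharide were not analysed here.

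Values are RPKM, read density per length of transcript and per depth of library, as deposited. The 2 tables were normalized separately, so ratios were taken within an experiment. The libraries labelled Irf8 cKO are called cKO 1 and cKO 2 below, and pairs of values are in the order of experiments 1 and 2. Irf8 itself stood at 14.5 and 14.9 RPKM in Ctrl, against 20.6 and 11.6 in cKO, a total over all exons that does not check the deletion. Directions are therefore those of the libraries as labelled. All 13 germinal centre B cell markers measured 3.02 RPKM or more in every library, and the T cell genes Cd3d, Cd3e, Cd3g, Cd4, Cd8a and Cd8b1 0.0878 or less. All 13 had a log2 ratio below 0 as deposited and 9 after scaling. Of the 13, 1 fell as deposited (1.09% over all tested genes), Ms4a1, which encodes CD20, at 96.4 and 67.6 RPKM in Ctrl, against 49.0 and 23.4 in cKO (log2 ratio -1.23, adjusted p = 0.0356, limma). Scaling ended that call (log2 ratio -0.77, adjusted p = 0.449, limma). T cell markers summed to 2.73 to 5.12 RPKM, nearly all of it from the kinase gene Lck. The median log2 ratio over the 6446 tested genes was -0.18 in experiment 1 and -0.51 in experiment 2, so genes are also given after median-of-ratios scaling, which moved the median of both experiments together from -0.35 to -0.04. Rn45s, the precursor of ribosomal RNA, stood at 9080 and 5890 RPKM in Ctrl, against 8590 and 16700 in cKO, and its part in the lower median of experiment 2 was not tested. In the bulk RNA, fewer cells of a type and less RNA per cell cannot be told apart.

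As background, the dioxygenases IDO1, IDO2 and TDO2 open the ring of tryptophan, and the formamidase AFMID releases kynurenine from the product. KMO, a flavin-dependent hydroxylase of the mitochondrial outer membrane, KYNU, a hydrolase, and HAAO, an iron-dependent dioxygenase, then act in turn on the branch that leads to NAD. QPRT makes the nucleotide on the way to NAD, ACMSD diverts the intermediate before it, and kynurenine and kynurenic acid are ligands of the aryl hydrocarbon receptor, AHR. IDO1 is known as an interferon-induced brake on T cells in dendritic cells and macrophages, and TDO2 and ACMSD are known mainly from liver.

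Kmo is the member with the lowest ratio, and the window around its start (250 bases before to 50 after, RefSeq, GRCm38.p6) is shown because IRF8 binds DNA with ETS partners such as PU.1. Of the 10 members, 6 had a window in the RefSeq table (Kmo, Afmid, Haao, Tdo2, Qprt and Acmsd). The windows of Kmo and Haao are given, 5′ to 3′ on the gene's strand. Capitals mark GAGGAAGT in Kmo, a form of the core bound by PU.1, and GCGTG in Haao, the core of the AHR response element.
Kmo, chr1:175631943-175632242, plus strand: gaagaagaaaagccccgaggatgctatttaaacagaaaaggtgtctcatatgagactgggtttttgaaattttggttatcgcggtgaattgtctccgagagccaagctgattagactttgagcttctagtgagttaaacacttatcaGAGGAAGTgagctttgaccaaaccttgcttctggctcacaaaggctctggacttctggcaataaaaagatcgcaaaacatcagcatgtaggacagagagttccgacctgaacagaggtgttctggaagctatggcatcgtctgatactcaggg
Haao, chr17:83846741-83847040, minus strand: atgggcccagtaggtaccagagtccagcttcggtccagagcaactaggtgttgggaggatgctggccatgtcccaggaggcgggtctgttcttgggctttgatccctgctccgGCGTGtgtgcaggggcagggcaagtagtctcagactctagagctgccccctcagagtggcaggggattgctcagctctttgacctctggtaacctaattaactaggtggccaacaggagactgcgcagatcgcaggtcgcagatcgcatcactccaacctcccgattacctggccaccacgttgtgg

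Both strands were searched. GAGGAAGT begins 103 bases before the Kmo start, was searched only after the Kmo window had been read, and occurs in 3.20% of the 32841 windows of the table. The interferon-stimulated response element core (GAAA and GAAA with 2 bases of any kind between) and the joint ETS and IRF element (GGAA and GAAA with 2 or with 3 bases between) were in 0 of the 6 member windows, and are in 3.44%, 2.72% and 2.76% of all windows. These forms share letters, so 1 stretch can match more than 1 of them. GCGTG was in the windows of Haao, Tdo2 and Acmsd, 3 of 6, against 32.4% of all windows. These are letters in a short window and not measured binding. GENCODE M21 places 6 Kmo transcripts at 6 different starts, from position 175620381 to 175632239 of chromosome 1, so the window covers only part of the possible promoter region. The first of these starts lies inside the span of the neighbouring gene Fh1.

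In Ctrl cells the middle of the pathway was expressed and its ends were not or hardly so. By mean RPKM, a level per length of transcript, the order in Ctrl was Kmo, Haao, Kynu, Afmid, Ido1, Ahr, Tdo2, Acmsd, Ido2 and Qprt. Kmo and Haao both lay above Kynu in each Ctrl library, but Kmo was above Haao in experiment 1 by more than in experiment 2, where the values were 5.32 and 4.92. In Ctrl the values of Ahr overlapped those of both Ido1 and Tdo2. Of the 10 genes, 6 stayed below 0.5 RPKM in all 4 libraries. Only Kmo, Kynu and Haao reached 1 RPKM in at least 2 libraries, the filter for testing, and Kmo passed it through the Ctrl libraries alone.

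**Figure D1:**
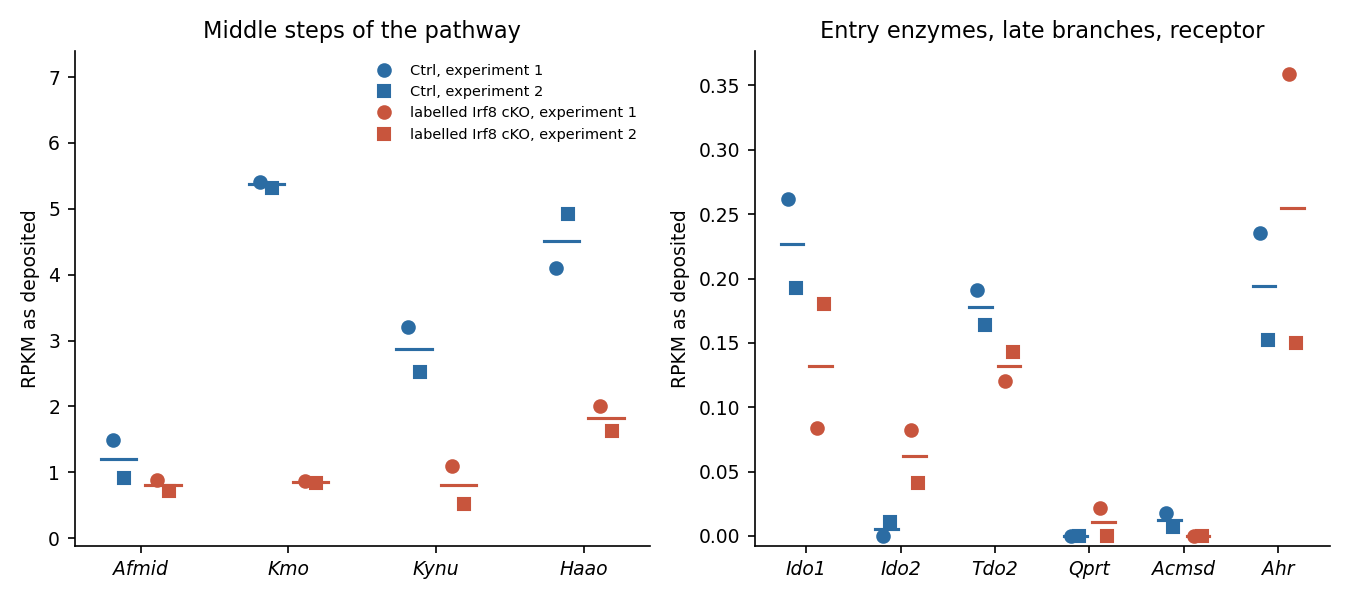
RPKM as deposited (y axis, linear) of the 10 genes in the 4 libraries, with Ctrl in blue, libraries labelled Irf8 cKO in red, circles for experiment 1, squares for experiment 2 and bars for the mean of 2 libraries. Kmo lies near 5.4 in both Ctrl libraries and under 0.9 in both others, while the 6 genes of the right panel lie below 0.5 throughout.

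Afmid, the formamidase (NM_027827, mm10, as all gene positions here, chr11:117825919-117839908, plus strand), measured 1.49 and 0.919 RPKM in Ctrl 1 and 2. In cKO it was at 0.886 and 0.715. The 2 groups were set apart only by the gap between 0.919 and 0.886, and after scaling they overlapped, with Ctrl at 1.21 and 0.804 and the others at 0.829 and 1.04. Log2 ratios here are on the log2(RPKM + 1) scale, except those with a pseudocount of 0.1 and the authors' deposited ones. The authors' ratios are on a scale of their own and are not comparable in size. For Afmid the log2 ratio was -0.40 in experiment 1 and -0.16 in experiment 2 as deposited. After scaling it was -0.27 and 0.18, so its direction turned in experiment 2. Exons of Afmid share 1566 bases with the GENCODE model Gm20708 on the same strand and 83 bases with Tk1, a thymidine kinase of dividing cells, on the other strand. No source used here says how reads in shared bases were assigned, which makes this value uncertain.

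Kmo, the hydroxylase (NM_133809, chr1:175632193-175660853, plus strand, 15 exons), measured 5.41 and 5.32 RPKM in Ctrl 1 and 2 (5.37 ± 0.0634, mean ± SD, n = 2). In cKO it was at 0.874 and 0.836 (0.855 ± 0.0272). The 2 libraries of each group nearly coincided and the groups were far apart. From the spacing of low values these RPKM stand for an estimated 1064 and 901 reads in Ctrl and 178 and 143.5 reads in the others. The ratio of Ctrl to Irf8 cKO was 6.19 in experiment 1 and 6.37 in experiment 2 as deposited, and 5.40 and 3.82 after scaling. On the log2 scale the ratio was -1.77 and -1.78 by experiment (-1.78 ± 0.28, SE), and -1.57 and -1.35 after scaling (-1.46 ± 0.15). Of the 6446 tested genes, 5 had a lower ratio in experiment 1 and 5 in experiment 2. Kmo was picked for its fall and passed the filter through the Ctrl libraries alone, so this place follows from the choice. Kmo lay above 92.6% and 93.6% of all listed genes in Ctrl 1 and 2, and above 71.9% and 76.8% in cKO, a position within each library that no scaling changes. In the authors' deposited table, on its own scale, the log2 ratio of Kmo was -2.43 in experiment 1 and -1.95 in experiment 2.

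Kynu, kynureninase (NM_027552, chr2:43555329-43682715, plus strand, 14 exons), measured 3.21 and 2.53 RPKM in Ctrl 1 and 2 (2.87 ± 0.478, mean ± SD, n = 2). In cKO it was at 1.10 and 0.525 (0.813 ± 0.407), an estimated 227 and 91.3 reads. Both values lay below both Ctrl values, and the spread between experiments was wider than for Kmo in each group. The ratio of Ctrl to Irf8 cKO came to 2.91 and 4.83 before and to 2.54 and 2.89 after scaling, which brought the experiments closer together. On the log2 scale this was -1.11 ± 0.26 (SE), with -1.0 and -1.21 by experiment, and scaling gave -0.85 ± 0.14. The authors' deposited table gives a log2 ratio of -1.34 in experiment 1 and -1.55 in experiment 2.

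Haao, the dioxygenase that acts on the product of KYNU (NM_025325, chr17:83831354-83846790, minus strand, 10 exons), was not picked for its values. It was added as a neighbouring step, but with earlier results of these data known. It stood at 4.10 and 4.92 RPKM in Ctrl (4.51 ± 0.580, mean ± SD, n = 2), against 2.01 and 1.63 in cKO (1.82 ± 0.268), an estimated 209.5 and 143.3 reads. Here too both Ctrl libraries lay above both others, by 2.04 and 3.02 times as deposited and 1.78 and 1.81 times after scaling. The log2 ratio was -0.97 ± 0.29 (SE) and missed the threshold of 0.05 (adjusted p = 0.0613, limma with Benjamini-Hochberg adjustment over all tested genes), with -0.76 and -1.17 by experiment. After scaling it was -0.62 ± 0.14 (adjusted p = 0.350, limma), with -0.59 and -0.65 by experiment. When cKO 1 was left out and the experiment was no block, Haao passed as deposited (log2 ratio -1.06, adjusted p = 0.0158, limma), in a fit that called 1450 lower genes. Haao was below 0 in both experiments on both scales, as were 71.2% of tested genes as deposited and 33.2% after scaling. Kmo and Kynu were below 0 as well, but they were picked for their fall. For Haao the authors' deposited table gives a log2 ratio of -0.823 (unadjusted p = 0.0947) and -0.873 (unadjusted p = 0.131).

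**Figure D2:**
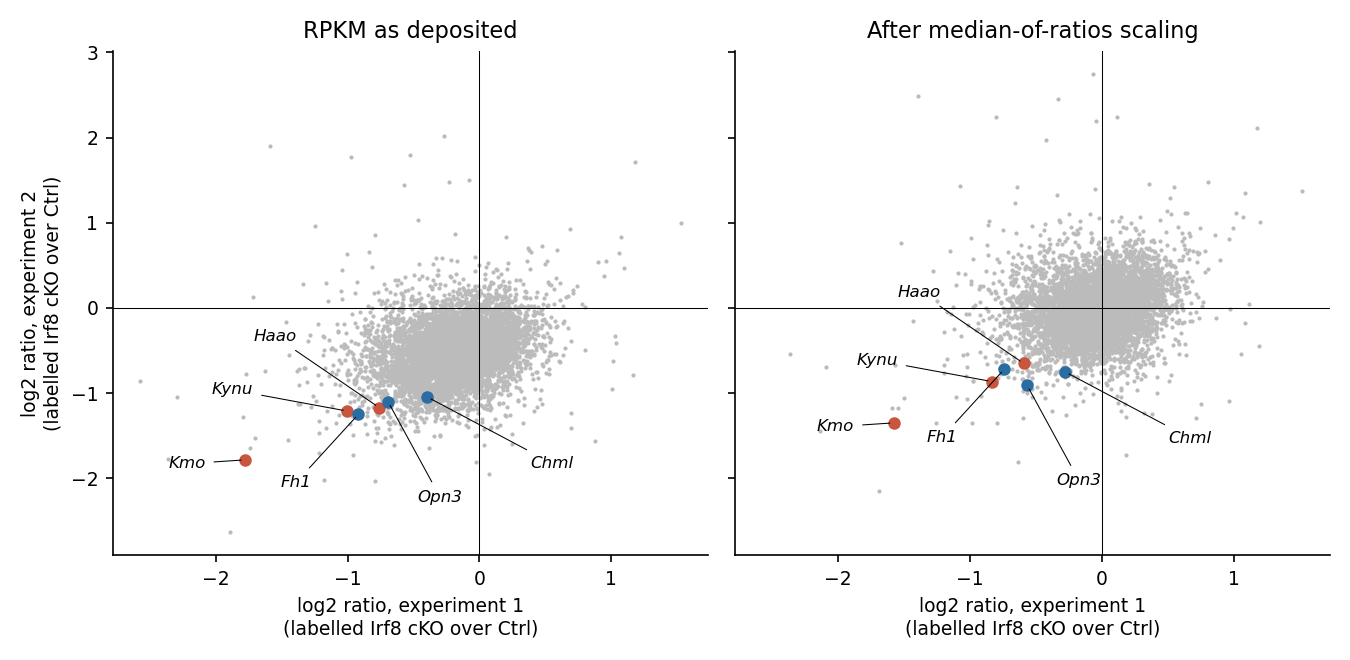
Log2 ratio of the library labelled Irf8 cKO over Ctrl in experiment 1 (x axis) and experiment 2 (y axis) for the 6446 tested genes (grey), as deposited (left) and after scaling (right), with Kmo, Kynu and Haao in red and 3 genes beside Kmo (Fh1, Opn3 and Chml) in blue. The cloud lies below 0 as deposited and near 0 after scaling, and the 6 named genes lie below 0 on both axes in both panels.

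Ratios between members of one library do not depend on its scaling. Kmo stood at 1.32 and 1.08 times Haao in Ctrl 1 and 2, and at 0.435 and 0.513 times Haao in cKO. The Kmo transcript was the higher of this pair in Ctrl and the lower in cKO, in both experiments. Kynu stood at 0.783 and 0.515 times Haao in Ctrl and at 0.548 and 0.322 times in the others, ranges that overlap between groups but are lower in Irf8 cKO within each experiment. Kmo over Kynu was 1.69 and 2.10 in Ctrl and 0.794 and 1.59 in the others. Since Kmo and Kynu were picked for their low values, these ratios have no test.

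The entry enzymes were near the limit of detection. Ido1, the inducible dioxygenase (chr8:24584141-24597009, minus strand), stood at 0.262 and 0.193 RPKM in Ctrl, against 0.0841 and 0.180 in cKO. The lowest of these values is an estimated 9.9 reads and the highest 29.8. Tdo2, the dioxygenase best known from liver, stood at 0.191 and 0.164 in Ctrl, against 0.12 and 0.143 in cKO. After scaling both genes had a ratio below 0 in experiment 1 and above 0 in experiment 2, so no direction can be given. Ido2, the neighbour of Ido1 on chromosome 8 (chr8:24531892-24576333), was listed at 0 in Ctrl 1 and measured 0.0105 in Ctrl 2, and it measured 0.0824 and 0.0414 in cKO. These were at most an estimated 15.3 reads, with both Irf8 cKO values above both Ctrl values on either scale, and the authors' deposited table gives unadjusted p = 0.0332 and 0.432 for the 2 experiments.

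The late branches were at or next to 0. Qprt, the phosphoribosyltransferase that leads to NAD, was listed at 0 in 3 libraries and measured 0.0219 RPKM, an estimated 3.4 reads, in cKO 1. Acmsd, the decarboxylase that diverts the pathway from NAD, measured 0.0177 and 0.00684 in Ctrl, an estimated 3.5 and 1.2 reads, and was listed at 0 in both libraries labelled Irf8 cKO. No difference was detectable at this depth for either gene. Ahr, the receptor (NM_013464, chr12:35497979-35534989, minus strand), stood at 0.235 and 0.152 in Ctrl, against 0.359 and 0.15 in cKO, with overlapping groups. After scaling Ahr was at 0.192 and 0.133 in Ctrl, against 0.336 and 0.219 in cKO, so that both cKO values lay above both Ctrl values (log2 ratios 0.17 and 0.11). As deposited, both Ctrl libraries lay above both others in 7 of the 10 genes (Afmid, Kmo, Kynu, Haao, Ido1, Tdo2 and Acmsd), against 21.1% of all listed genes and 44.7% of tested genes. This count is no test of the set, since Kmo and Kynu were picked for their fall. Afmid was set apart only by 0.919 against 0.886, and Ido1, Tdo2 and Acmsd rest on an estimated 47.9 reads or fewer in each library. After scaling this held for 4 of 10 (Kmo, Kynu, Haao and Acmsd), against 10.1% and 18.4%. Of these, Kmo and Kynu were chosen for it and Acmsd rests on under 4 reads.

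Over all tested genes, 70 were lower (1.09%) and 6 higher (0.0931%) in cKO as deposited (limma), and 19 (0.295%) and 2 (0.0310%) without the experiment as a block. After scaling 0 were lower and 0 higher (limma, both 0%), with 380 and 279 at an unadjusted p under 0.05. When the scaling rested on the tested genes alone, 3 were lower (0.0465%) and 1 higher (0.0155%). With no filter on low values, all 23469 genes gave 0 calls in either direction (limma, 0%), with 1180 lower and 225 higher at an unadjusted p under 0.05.

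The nearest expressed genes beside Kmo on chromosome 1 also had lower values in cKO, and they took no part in the choice of members. Fh1, fumarate hydratase of the citric acid cycle, lies 6558 bases before the Kmo start on the other strand, and stood at 6.36 and 5.48 RPKM in Ctrl, against 2.89 and 1.73 in cKO. Opn3, a non-visual opsin, lies 1575 bases beyond the end of Kmo on the other strand, and stood at 1.17 and 1.46 in Ctrl, against 0.342 and 0.145 in cKO. Chml, a Rab escort protein, lies within the span of Opn3, and stood at 1.33 and 1.86 in Ctrl, against 0.774 and 0.382 in cKO. For Fh1 both Ctrl values lay above both others as deposited, as they did in 44.7% of all tested genes. Fh1 fell as deposited (log2 ratio -1.08 ± 0.30 SE, adjusted p = 0.0356, limma). In Opn3 and Chml both Ctrl values lay above both others too, but these genes passed the filter on low values through the Ctrl libraries alone. Their order and their log2 ratios of -0.90 and -0.72 are therefore a description with no test.

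After scaling the log2 ratios were -0.73 for Fh1, -0.74 for Opn3 and -0.51 for Chml, and Fh1 no longer passed (adjusted p = 0.350, limma). The call of Fh1 was also lost without the block (adjusted p = 0.395, limma), with a pseudocount of 0.1 (0.0611), without the filter (0.806), and when Ctrl 1, Ctrl 2 or cKO 2 was left out without the block (0.912 to 1.00). The ratio of Fh1 was below 0 in all 15 alternatives, which refit the same libraries. It was also below 0 in all 15 for Opn3 and Chml, but their pass of the filter through Ctrl alone favours that direction. Within 1000 kb on either side of Kmo, a window chosen after the values were seen, the tables list 10 genes, of which 5 were tested. The fifth, Exo1, an exonuclease of DNA repair, whose middle lies 264 kb from the Kmo start, stood at 1.25 and 0.985 RPKM in Ctrl, against 1.18 and 0.877 in cKO (log2 ratio -0.06 as deposited, adjusted p = 0.852, limma, and 0.18 after scaling). On the other side Rgs7 was at 0.0452 RPKM or less. Without strand information, which the sources used here do not give, reads that run past the end of Kmo into Opn3 could not be told apart from Opn3, and their part in its value was not tested.

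**Figure D3:**
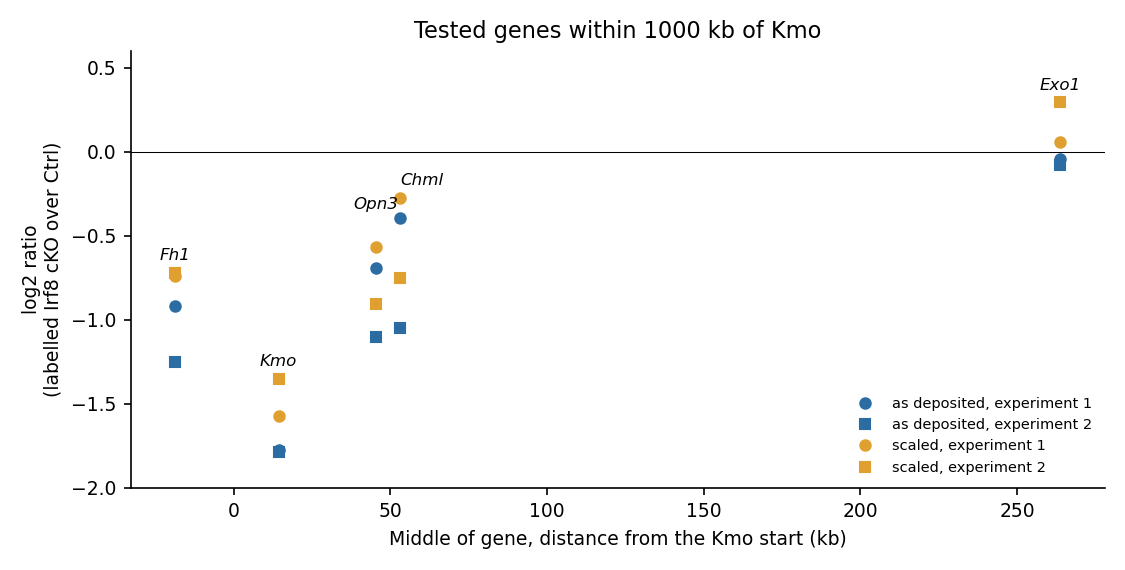
Log2 ratio of the library labelled Irf8 cKO over Ctrl (y axis) for the 5 tested genes within 1000 kb of Kmo, placed by the middle of the gene in kb from the Kmo start (x axis), with circles for experiment 1, squares for experiment 2, blue as deposited and orange after scaling. Fh1, Kmo, Opn3 and Chml lie below 0 in both experiments on both scales, and Exo1 lies near 0.

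The tested genes nearest to Kynu and Haao did not pass the test, which called 1.09% of all tested genes lower as deposited. Arhgap15, a Rac GTPase-activating protein 66112 bases beyond Kynu, stood at 5.79 and 7.90 RPKM in Ctrl, against 7.27 and 4.50 in cKO (log2 ratio -0.21, adjusted p = 0.658, limma). Of the 3 nearest genes on each side of Kynu, 4 were tested, with log2 ratios from -0.66 (Ppp6c) to 0.0062 (Gtdc1), and none passed. Ppp6c and Scai lie 4328991 and 4364599 bases before Kynu and Gtdc1 881707 bases beyond it. All 4 are farther from Kynu than Fh1, Opn3 and Chml are from Kmo. Beside Haao the nearest tested gene was Mta3, a chromatin factor of germinal centre B cells 16449 bases away, at 6.08 and 7.46 RPKM in Ctrl, against 4.37 and 2.98 in cKO (log2 ratio -0.74, adjusted p = 0.221, limma). That ratio was close to the -0.72 of Chml beside Kmo, and both Ctrl values of Mta3 lay above both others, as in 44.7% of all tested genes. The other tested genes among the 3 nearest on each side of Haao ran from -0.67 (Cox7a2l) to 0.0052 (Thada).

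By the pair of log2 ratios in the 2 experiments (4 libraries, as deposited), the 5 genes nearest to Kmo were Rnase6, a secreted ribonuclease, Sepp1, a selenium carrier, Ngp, a neutrophil granule protein, Snord34, a small nucleolar RNA, and Ctsh, the protease cathepsin H, at distances from 0.148 to 0.567. Snord34 was listed at 0 in both cKO libraries. Rnase6, the nearest, stood at 5.81 and 5.39 RPKM in Ctrl, against 1.04 and 1.05 in cKO, so that its levels as well as its ratios were close to those of Kmo in each library. Ngp had a like ratio but unlike levels, with 11.9 and 2.24 in Ctrl and 3.72 and 0.107 in the others. The 5 nearest to Kynu were Cox17, a copper chaperone, Ehd4, an endosomal ATPase, Blvrb, a biliverdin reductase, Lgmn, the protease legumain, and Fh1, the neighbour of Kmo, at distances from 0.018 to 0.0923.

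Myeloid cells are known to express Kmo and Kynu, and their markers also differed between the groups. Of 19 fixed myeloid and neutrophil markers, 18 were in the tables and 6 were tested. Of these 6, S100a8, S100a9 and Ngp fell as deposited (log2 ratios -1.72, -1.67 and -1.50, limma), against 1.09% over all tested genes. After scaling their log2 ratios were -1.46, -1.39 and -1.31, and the calls were lost (adjusted p = 0.449, 0.353 and 0.148, limma). S100a8, a calprotectin subunit, stood at 26.0 and 1.69 RPKM in Ctrl, against 3.54 and 0.477 in cKO. The markers summed to 90.4 RPKM in Ctrl and 29.3 in cKO in experiment 1, and to 19.3 and 9.56 in experiment 2. The sum was thus lower in cKO in each experiment, as were Kmo, Kynu and Haao. Across experiments, which were normalized separately, the sum was higher in cKO 1 than in Ctrl 2, while Kmo, Kynu and Haao were lower. Of the tested markers, S100a8, S100a9, Ngp and Lyz2 were higher in cKO 1 than in Ctrl 2. Apoe (6.75 against 7.86) and Cd68 (0.649 against 1.31) were lower. Between Ctrl 1 and Ctrl 2, Kmo stood at 5.41 and 5.32, Kynu at 3.21 and 2.53 and Haao at 4.10 and 4.92. The part of myeloid cells in the values of these 3 genes was not tested. Of the other tested markers, Lyz2, a lysozyme, stood at 16.5 and 3.47 in Ctrl, against 9.34 and 0.988 in cKO, Apoe, a lipid carrier, at 9.04 and 7.86 against 6.75 and 5.90, and Cd68, a lysosomal protein, at 1.15 and 1.31 against 0.649 and 1.13, and none of them passed. In the plane of the 2 log2 ratios, the 5 genes nearest to Haao were Lyz2, Dnaja1, Atp6v0e, Scimp and Prdx5, at distances from 0.00296 to 0.0491. They are named outside the rule, which covers Kmo and Kynu, and only Lyz2 is among the fixed myeloid and neutrophil markers. Lyz2 had like ratios to Haao but unlike levels, with 16.5 and 3.47 in Ctrl against 4.10 and 4.92 for Haao. The integrin gene Itgam stood at 0.706 and 0.219 in Ctrl, against 0.349 and 0.113 in cKO. Lower still, the macrophage and monocyte markers Csf1r, Emr1, Mertk, C1qa, C1qc and Vcam1 measured 0.0993 RPKM or less in every library, and Cd14 and C1qb were listed at 0 in all 4. Dendritic cell markers summed to 1.48 and 1.97 RPKM in Ctrl, against 1.25 and 1.23 in cKO, most of it from Flt3, with Clec10a at 0 throughout.

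**Figure D4:**
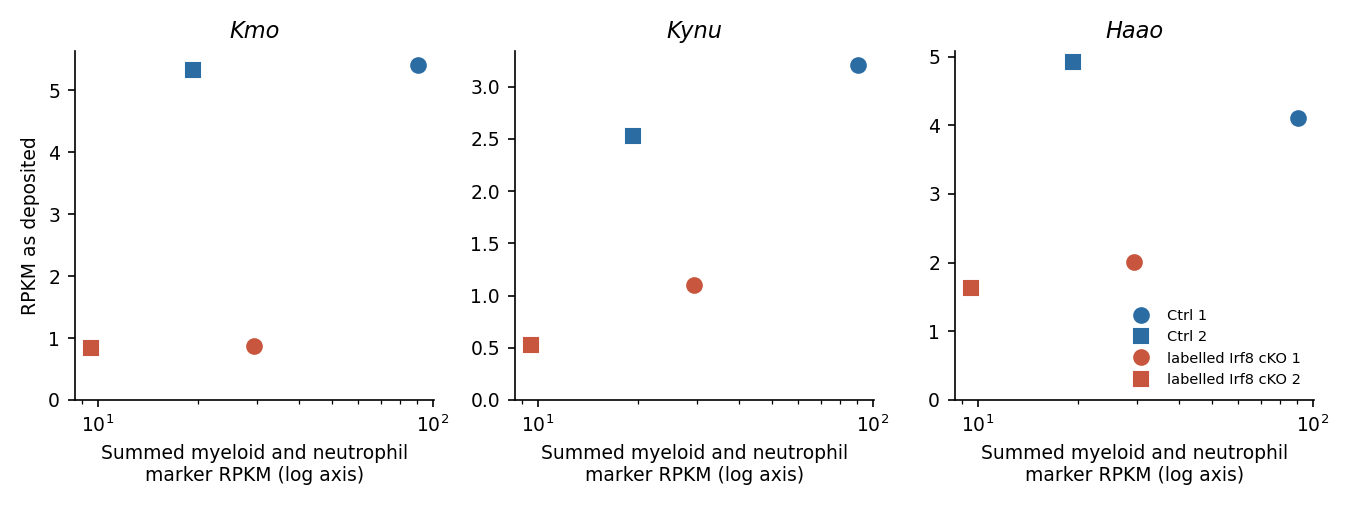
RPKM as deposited (y axes, from 0) of Kmo, Kynu and Haao against the summed RPKM of 18 myeloid and neutrophil markers (x axes, log scale), 1 point per library, with Ctrl in blue, libraries labelled Irf8 cKO in red, circles for experiment 1 and squares for experiment 2. Within each experiment the cKO library lies to the left of the Ctrl library and below it in all 3 panels. Across experiments, which were normalized separately, cKO 1 lies to the right of Ctrl 2 and below it.

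Genes around the pathway were followed in 8 fixed lists of 128 genes, of which 41 were tested. Of these 0 passed as deposited (limma), with 10 at an unadjusted p under 0.05 against 18.8% of all tested genes. When cKO 1 was left out without the block, 11 of the 41 were called lower, against 22.5% of all tested genes. Their log2 ratios had a median of -0.41 before and -0.10 after scaling, close to the -0.35 and -0.04 over all tested genes.

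Of the AHR partners and chaperones, 5 of 8 were tested and 0 passed, with 3 at an unadjusted p under 0.05 (limma, 18.8% over all tested genes). The chaperones Hsp90ab1 and Hsp90aa1, which hold AHR in the cytosol, stood at 121 and 133 RPKM in Ctrl, against 119 and 71.0 in cKO, and 32.8 and 28.0 against 22.8 and 11.1. Hsp90ab1 was level in experiment 1 and Hsp90aa1 lower in both experiments. Of 12 AHR target genes 1 was tested and did not pass, Nfe2l2, a regulator of antioxidant genes, at 3.97 and 3.19 RPKM in Ctrl, against 3.44 and 2.43 in cKO. Tiparp, an AHR-induced ADP-ribosyltransferase, stood at 0.497 and 0.463 in Ctrl, against 0.381 and 0.263 in cKO. The classical targets Cyp1a1, Cyp1a2 and Nqo1, named for being at 0, were listed at 0 in all 4 libraries.

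Of 12 genes of tryptophan uptake and charging, 4 were tested and 0 passed, with 1 at an unadjusted p under 0.05 (limma, 18.8% over all tested genes). Il4i1, an oxidase of aromatic amino acids, stood at 2.65 and 5.34 RPKM in Ctrl, against 3.93 and 2.78 in cKO, with opposite directions in the 2 experiments. Slc7a5, the large neutral amino acid transporter, stood at 4.13 and 3.36 in Ctrl, against 3.13 and 1.34 in cKO, below Ctrl in both. Of the 4 kynurenine transaminases, which make kynurenic acid, only Got2, also an enzyme of the malate-aspartate shuttle, was tested. It stood at 6.37 and 5.80 RPKM in Ctrl, against 3.95 and 1.77 in cKO (log2 ratio -0.93, adjusted p = 0.103, limma, and -0.58 after scaling). Ccbl2 measured from 0.182 to 0.248 in all libraries, and Aadat was listed at 0.

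Of 14 genes of NAD synthesis and salvage, 4 were tested, and 0 passed with 0 at an unadjusted p under 0.05 (limma, 18.8% over all tested genes). Pnp, a purine nucleoside phosphorylase that also acts on nicotinamide riboside, stood at 7.20 and 4.76 RPKM in Ctrl, against 5.42 and 2.51 in cKO. Nt5e, the ecto-nucleotidase CD73, stood at 3.30 and 2.29 in Ctrl, against 2.32 and 1.41 in cKO. Nampt, the rate-limiting enzyme of NAD salvage, named outside the rule for its role, measured 3.02 and 2.17 against 2.45 and 1.16, well above Qprt in each library. Of 21 NAD-consuming enzymes 13 were tested and 0 passed, with 3 at an unadjusted p under 0.05 (limma, 18.8% over all tested genes). Parp1, the DNA damage sensor, stood at 15.3 and 18 RPKM in Ctrl, against 14.4 and 9.08 in cKO, and Parp8, a mono-ADP-ribosyltransferase, 12.5 and 13.7 against 7.99 and 5.29.

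Of 26 genes of other amino acid breakdown, 7 were tested and 0 passed, with 1 at an unadjusted p under 0.05 (limma, 18.8% over all tested genes). Glud1, glutamate dehydrogenase, stood at 14.6 and 12.5 RPKM in Ctrl, against 11.1 and 7.92 in cKO. Of 32 interferon-stimulated genes 6 were tested and 0 passed, with 1 at an unadjusted p under 0.05 (limma, 18.8% over all tested genes). Trim30a stood at 3.14 and 2.47 RPKM in Ctrl, against 2.10 and 2.10 in cKO. After scaling the median log2 ratio of this list was 0.08.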

How the data were processed

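RNA of sorted germinal centre B cells was extracted with the RNeasy Mini kit, amplified with Ovation RNA-Seq System v2 and made into libraries with Nextera XT, per the labels' protocols. The authors deposited RPKM made in Wardrobe, per the series design text, 1 table per experiment. Builds mm9 and mm10 and the tools Cuffdiff, Cufflinks 2.2, DESeq and TopHat2 2.0 stand without roles in the submitters' processing notes, and the deposited starts match mm10. A log2 ratio and an unadjusted p-value of 1 library against 1 are deposited beside the RPKM and were copied as the authors' values.

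Entries sharing a symbol (2) were summed. Genes reaching an RPKM of 1 in 2 libraries or more were fitted on log2(RPKM + 1), which understates changes of low genes, with limma 3.58.1 (lmFit, eBayes with trend, 2-sided) in R 4.3.3, with the experiment as a block and 1 residual degree of freedom. The prior degrees of freedom were infinite as deposited and 4.90 after scaling, so as deposited SE and p follow the trend over genes of like level. The labels number the experiments, and deviations of same-numbered libraries from their group means correlated at 0.377 (0.336 after scaling). Scaling used 11717 genes above 0 in all libraries. Read totals, estimated from RPKM times GENCODE transcript length of genes with 1 transcript, were 62800000 to 75500000 reads. Of low values under 6 reads, 73.2% to 76.8% came out whole within 0.1 reads, so no count test was run and reads are approximate. Values worth 2 reads (408 to 439 genes) outnumbered those worth 1 (178 to 232). The fit was checked on simulated data. The members and lists were chosen with earlier results of these data known. All members are named, with the called genes or else the 2 highest by mean RPKM of each list, and the 5 genes nearest to Kmo and Kynu by Euclidean distance. Some items that this rule would name are not reported here. Tables were made with pandas 2.3.3 and numpy 2.4.6 in Python 3.11.15, and plots with matplotlib 3.10.9.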

Additional observations from a re-analysis of the deposited data

How the results depend on the processing

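The experiment served as a block because the labels number it. With no replicate block the paired fit's counts went from 70 lower and 6 higher genes to 19 and 2, and the log2 ratios did not move. After median-of-ratios scaling, and with no filter on low values, with or without scaling, 0 genes were lower and 0 higher. Scaling over the tested genes alone gave 3 and 1, and scaling without the block 2 and 1, both chosen after seeing the data. Leaving out 1 library at a time, without the block, gave 0 to 1450 lower genes (without Ctrl 1, Ctrl 2, cKO 1 and cKO 2 in turn 0, 5, 1450 and 13 as deposited and 7, 10, 57 and 13 after scaling) and 0 to 59 higher genes (0, 0, 9 and 4, and 6, 3, 59 and 6), and 0 to 11 lower genes over the 8 lists, the 11 without cKO 1 as deposited. The log2 ratio of Kmo was -1.46 after scaling, with or without the block or the filter, -1.43 when scaled over tested genes, -2.52 with a pseudocount of 0.1, and with 1 library left out in the same order -1.77, -1.79, -1.79 and -1.76, and after scaling -1.49, -1.43, -1.32 and -1.61. For Kynu these were -0.85, -0.82 and -1.77, with 1 library left out -1.34 to -0.88 as deposited, and after scaling -0.76, -0.93, -0.95 and -0.75. Haao ranged from -1.27 to -0.48 over 15 alternatives and passed in 1, without cKO 1 as deposited (-1.06), while leaving out 1 library gave -1.07 to -0.48. The causes of these changes were not tested. Haao was below 0 in all 15, as were Kmo and Kynu, which were picked for their fall. Ido1, Ido2, Tdo2, Qprt and Acmsd rest on an estimated 47.9 reads or fewer in each library.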

Other observations

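Tryptophan can also be oxidised outside the kynurenine pathway by IL4I1, and the 2 routes stood at different levels. Ido1, Ido2 and Tdo2 together summed to 0.454 and 0.367 RPKM in Ctrl 1 and 2 and to 0.287 and 0.365 in the libraries labelled Irf8 cKO. Il4i1 stood at 5.83 and 14.6 times that sum in Ctrl and at 13.7 and 7.61 times in the others, so it was the more abundant transcript in every library, with no common direction between groups. Both are transcript levels per length, and enzyme activity was not measured.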
